A study of Mus musculus with 16 samples.

Results

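The genes described here are 10 of the 30095 genes measured: the chemokine genes Cxcl1, Cxcl2, Cxcl3 and Cxcl5, the chemokine receptor gene Cxcr2, the growth factor gene Csf3 with its receptor gene Csf3r, and the neutrophil genes S100a8, S100a9 and Retnlg. They were taken by gene symbol. All 10 were present, and all 10 reached 1 CPM (a gene's share of all reads in its library, scaled up) in at least 2 libraries, the filter on low values that 17546 genes passed. RNA was sequenced from lungs of C57BL/6 mice bearing tumours of HKP1, a mouse lung adenocarcinoma line. Lungs were taken 24 to 48 hours after irradiation and pooled, 3 to 4 mice to a library. With an antibody against the checkpoint receptor PD-1 (anti-PD-1) there were 2 libraries at 0 Gy, 3 at 4 Gy and 3 at 8 Gy. With the control antibody IgG there were 3 libraries at 0 Gy, 2 at 4 Gy and 3 at 8 Gy. Every group carried the HKP1 tumour and received an antibody, so no group shows lung without tumour or without antibody, and the antibody dose and schedule are not stated in the labels.

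Neutrophils are called out of the bone marrow and into the lung by chemokines of the CXC family that carry an ELR motif. Cxcl1, Cxcl2, Cxcl3 and Cxcl5 encode such ligands, and mouse neutrophils read them through the receptor encoded by Cxcr2. Csf3 encodes G-CSF, which drives the making and release of neutrophils through the receptor encoded by Csf3r. S100a8 and S100a9 encode the subunits of calprotectin, an abundant protein of the neutrophil cytosol, and Retnlg encodes a resistin-like protein of mouse neutrophils and their precursors.

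The libraries hold RNA of tumour, lung and blood cells together, so that fewer cells of a type and less RNA per cell cannot be told apart. Ly6g, the gene of the antigen used to recognise mouse neutrophils, was barely detected (0.104 to 2.36 CPM) and did not pass the filter, and the precursor granule genes Elane and Mpo stayed at or under 0.436 and 0.738 CPM. The tissue itself was recognisable: the lung epithelium markers summed to 2620 CPM or more in every library. The outlying libraries, as replicates 2 and 3 of anti-PD-1 at 4 Gy are called here, lay apart on the first principal component (-81.5 and -98.3, against -46.8 to 51.9 elsewhere), and 6086 and 5315 genes had no reads in them, against 2273 to 3851 elsewhere. Results that rest on them are given with and without them. Unirradiated libraries carry the sheet numbers 13 to 17 in their titles and irradiated ones 26 to 36, and should these stand for different preparations, dose and preparation cannot be told apart.

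The chemokine genes lie side by side on chromosome 5 (mm10, plus strand), in the order Cxcl5, Ppbp, Pf4, Cxcl3, Cxcl15, Cxcl1 and Cxcl2. The promoters of Cxcl1, Cxcl2 and Cxcl3 are shown because these neighbours share a near-identical stretch ahead of the start, while their levels did not follow the same course over dose. Each is 300 bases, 250 before to 50 after the start, from RefSeq on GRCm38.p6 (chr5:90890995-90891294, chr5:90903649-90903948 and chr5:90785851-90786150, plus strand). Capitals mark letters that match GGNNTTTCC, a short form of the NF-kB site, on either strand. This form was settled on after the promoters had been seen, in place of a longer one that also matched in the promoter of Csf3r.
Cxcl1: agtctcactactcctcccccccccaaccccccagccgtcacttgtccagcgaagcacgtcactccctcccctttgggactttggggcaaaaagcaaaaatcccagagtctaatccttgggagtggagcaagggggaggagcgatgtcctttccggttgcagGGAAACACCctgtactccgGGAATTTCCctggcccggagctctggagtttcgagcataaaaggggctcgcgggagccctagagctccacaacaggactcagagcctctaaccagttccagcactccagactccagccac
Cxcl2: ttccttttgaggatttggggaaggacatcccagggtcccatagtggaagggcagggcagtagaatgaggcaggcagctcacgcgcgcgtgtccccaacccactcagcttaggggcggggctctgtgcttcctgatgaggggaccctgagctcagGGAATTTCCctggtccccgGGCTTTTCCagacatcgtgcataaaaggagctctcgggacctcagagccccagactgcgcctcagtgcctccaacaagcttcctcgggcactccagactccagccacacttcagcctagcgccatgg
Cxcl3: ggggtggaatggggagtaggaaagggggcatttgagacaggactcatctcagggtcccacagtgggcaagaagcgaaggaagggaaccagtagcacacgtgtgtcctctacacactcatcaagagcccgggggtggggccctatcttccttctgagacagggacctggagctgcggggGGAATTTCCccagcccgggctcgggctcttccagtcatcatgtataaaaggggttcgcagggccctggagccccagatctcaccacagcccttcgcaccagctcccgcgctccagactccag
All 3 hold the letters GGAATTTCC, which begin 70, 96 and 72 bases before the start of Cxcl1, Cxcl2 and Cxcl3, and Cxcl1 and Cxcl2 hold a second match each. Of 32851 promoters of this length, 5.82% hold the motif. The other 5 members with a promoter entry (Cxcr2, Csf3r, S100a8, S100a9 and Retnlg) held no match in this window. TTGNNNAA, a short form of the C/EBP site, which 36.7% of the promoters hold, occurred in those of Cxcl2, Cxcr2, S100a9 and Retnlg. A match describes these letters only.

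Over both antibodies Csf3, the G-CSF gene, fell after irradiation at both doses, and the 4 Gy call held in 16 of 25 alternatives. Within the arms its fall passed only with anti-PD-1, but the difference between the arms did not pass. Cxcl3 was the ligand gene that rose over both antibodies, at 4 Gy, a call lost without the outlying libraries. Retnlg fell at 8 Gy against 0 Gy with anti-PD-1 and rose with IgG, and here too the difference between the arms did not pass. S100a9 was higher with anti-PD-1 than with IgG in unirradiated lungs, a call that held in 4 of 16 fits leaving out 1 library. The plot of every library shows these courses, and the account below takes the ligands first, then the receptor, the growth factor pair and the neutrophil genes.

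**Figure D1:**
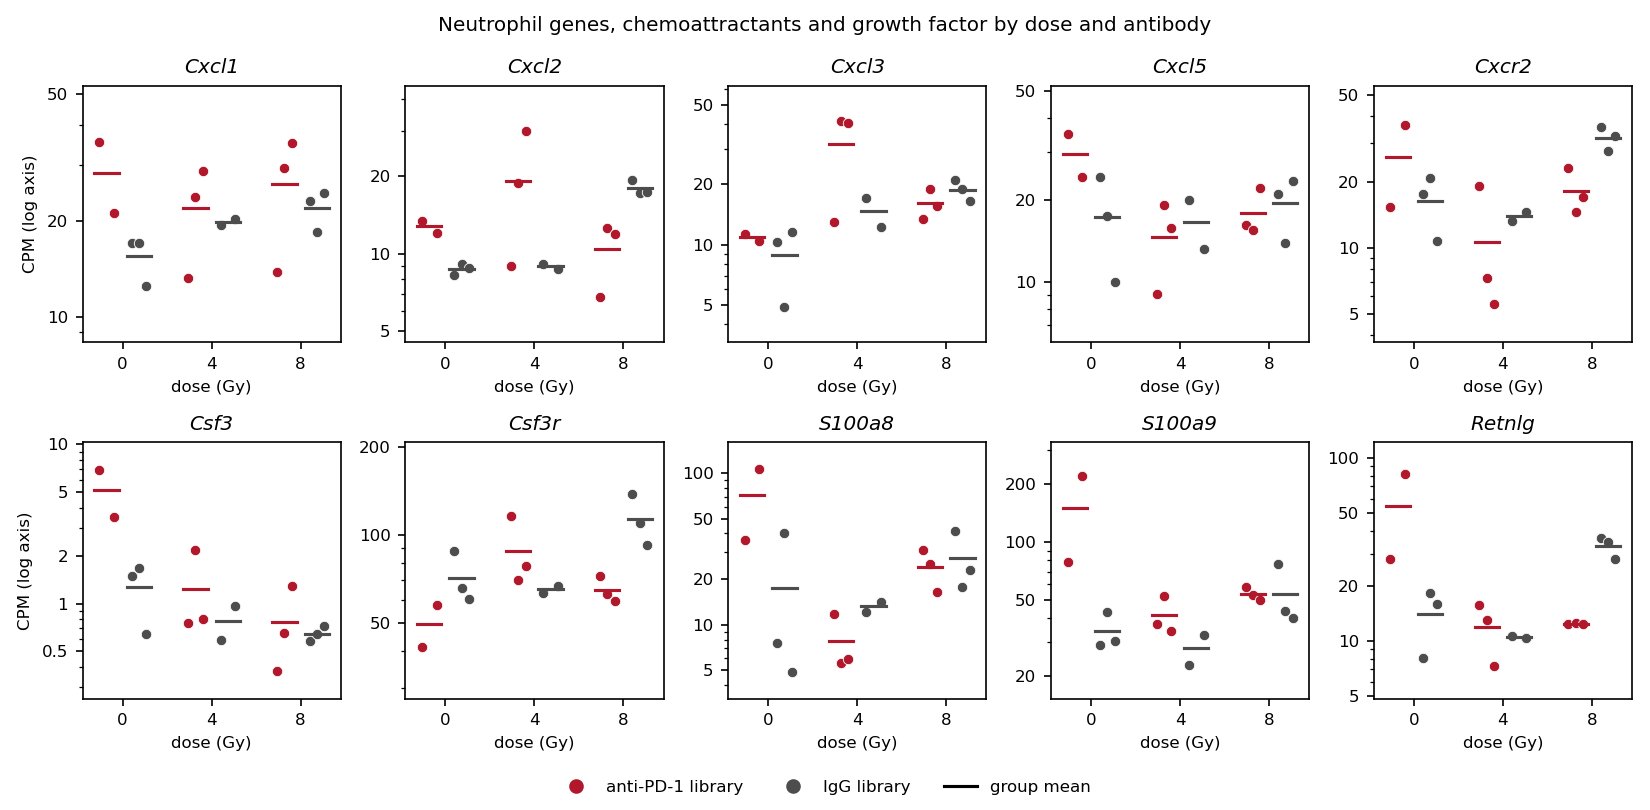
CPM of the 10 genes in every library (points, log axis, a separate scale per gene) by dose, with anti-PD-1 in red left of IgG in grey, and bars at the group means. Csf3, S100a9 and Retnlg are highest in the 2 unirradiated anti-PD-1 libraries or in 1 of them, and Retnlg at 8 Gy stands at 12.4 to 12.5 CPM with anti-PD-1 and 28.1 to 36.7 CPM with IgG.

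At 8 Gy against 0 Gy over both antibodies (n = 6 and 5), 1 member rose and 1 fell, 2 of 10, where 20.7% of all tested genes passed, 4.68% higher and 16.1% lower (limma on log2(CPM + 0.5), adjusted p under 0.05). At 4 Gy against 0 Gy (n = 5 and 5), 1 rose and 3 fell, 4 of 10, where 17.5% of genes passed, 5.33% higher and 12.2% lower. At 8 Gy against 4 Gy (n = 6 and 5), 3 rose and none fell, where 34.3% of genes passed, 17% higher and 17.2% lower. For anti-PD-1 against IgG over all doses (n = 8 and 8), no member passed in limma and 3 had an unadjusted p under 0.05. There 0.234% of all genes passed, and 3353 of 17546 had an unadjusted p under 0.05. The median log2 fold change of the members was 0.01 at 8 Gy and -0.63 at 4 Gy against 0 Gy, beside -0.09 and -0.14 over all genes tested. Setting the library medians equal moved these 2 medians over all genes to 0.02 and -0.03, and the same numbers of members rose and fell at 4 Gy, while 2 rose and 1 fell at 8 Gy.

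Cxcl3, a ligand of Cxcr2 (mm10, chromosome 5, 90786103 to 90789600), stood above every unirradiated library in every irradiated one. With anti-PD-1 it measured 11.3 and 10.4 CPM at 0 Gy, 13, 41.4 and 40.7 at 4 Gy, and 13.5, 19.1 and 15.6 at 8 Gy. With IgG it measured 10.3, 4.86 and 11.5 CPM at 0 Gy, 17 and 12.3 at 4 Gy, and 20.9, 18.9 and 16.5 at 8 Gy. The irradiated and unirradiated libraries did not overlap at either dose, a separation in either direction that 5.96% of all tested genes showed at 4 Gy and 6.45% at 8 Gy. The log2 fold change was 1.04 ± 0.30 (SE) at 4 Gy (adjusted p = 0.034) and 0.82 at 8 Gy (adjusted p = 0.0561, not passing, and 0.0157 without the outlying libraries). The call at 4 Gy was lost in a fit of the compared groups only (adjusted p = 0.0997). The 2 outlying libraries carried the highest values. Without them the fold change at 4 Gy was 0.50 (adjusted p = 0.304), and leaving out any one of IgG 0 Gy replicate 2, either IgG 4 Gy library, either anti-PD-1 0 Gy library or either outlying library also ended the call (adjusted p = 0.0615 to 0.101).

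Cxcl2 (chromosome 5, 90903871 to 90905938) shares 5.84% of its 50-base transcript stretches with Cxcl3, so that some reads may be placed with either gene. The share found in any other gene was 10.5% for Csf3r, 4.24% for Cxcl3, 4.01% for Cxcr2 and 0.693% for Cxcl5, and none for the remaining members. Cxcl2 gave no call in any comparison with all libraries in the fit. In the anti-PD-1 arm the libraries held 13.5 and 12.1 CPM at 0 Gy, 8.96, 18.8 and 29.9 at 4 Gy, and 6.80, 12.6 and 11.9 at 8 Gy. In the IgG arm the libraries held 8.30, 9.13 and 8.82 CPM at 0 Gy, 9.16 and 8.72 at 4 Gy, and 19.3, 17.2 and 17.3 at 8 Gy. All IgG libraries at 8 Gy lay above all IgG libraries at 0 and 4 Gy, while with anti-PD-1 the doses overlapped. With IgG 26.8% of all tested genes and 6 of 10 members did not overlap between 8 and 0 Gy, and 49.1% and 6 of 10 between 8 and 4 Gy. No fold change of Cxcl2 passed: against 0 Gy at 8 Gy it was -0.33 with anti-PD-1 and 1.00 with IgG, and their difference was -1.32 ± 0.48 (adjusted p = 0.997). Without the outlying libraries the 8 Gy value with IgG passed (adjusted p = 0.0144).

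Cxcl1 (chromosome 5, 90891241 to 90893115), a ligand that many tissue cells make in inflammation, showed no dose effect that passed. Under anti-PD-1 its level was 35.3 and 21.3 CPM at 0 Gy, 13.3, 23.8 and 28.7 at 4 Gy, and 13.8, 29.3 and 35.1 at 8 Gy. Under IgG its level was 17.1, 17.1 and 12.5 CPM at 0 Gy, 19.5 and 20.3 at 4 Gy, and 23.1, 18.5 and 24.6 at 8 Gy. With IgG the irradiated libraries all lay above the unirradiated ones, as 25.9% of all genes were separated in either direction at 4 Gy and 26.8% at 8 Gy, and with anti-PD-1 replicates of 1 group differed by more than the groups did. The log2 fold change against 0 Gy over both antibodies was -0.01 at 4 Gy and 0.16 at 8 Gy. The value at 4 Gy changed sign under quantile normalization and with the library medians set equal, to 0.10 under each.

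Cxcl5 (chromosome 5, 90759360 to 90761624), a ligand that lung epithelial cells can make, was highest in unirradiated lungs with anti-PD-1. Libraries of the anti-PD-1 arm stood at 34.8 and 24.2 CPM at 0 Gy, 9.05, 19.1 and 15.7 at 4 Gy, and 16.2, 15.5 and 22.1 at 8 Gy. Libraries of the IgG arm stood at 24.2, 17.5 and 10.1 CPM at 0 Gy, 19.9 and 13.2 at 4 Gy, and 21.1, 13.9 and 23.5 at 8 Gy. Only the anti-PD-1 arm separated by dose: its irradiated libraries all lay under its unirradiated ones. Such a separation in either direction was common in that arm, at 61.3% of all tested genes and 7 of 10 members for 4 Gy against 0 Gy, and 41.3% and 7 of 10 for 8 Gy against 0 Gy. There Cxcl5 fell at 4 Gy by 1.03 on the log2 scale, a call (adjusted p = 0.0404) lost, among other alternatives, under both rescalings, with no filter and without any one of 4 libraries (anti-PD-1 0 Gy replicates 1 and 2, anti-PD-1 4 Gy replicates 1 and 3). Without the outlying libraries the value was -1.63 (adjusted p = 0.143).

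Cxcr2 (chromosome 1, 74153989 to 74161246), the receptor for these ligands, was on average highest at 8 Gy with IgG. With anti-PD-1 it measured 15.4 and 36.6 CPM at 0 Gy, 19.2, 7.27 and 5.56 at 4 Gy, and 23.1, 14.6 and 17 at 8 Gy. With IgG it measured 17.7, 20.7 and 10.7 CPM at 0 Gy, 13.3 and 14.7 at 4 Gy, and 35.6, 27.7 and 32.4 at 8 Gy. With IgG every 8 Gy library lay above every library of the lower doses, and with anti-PD-1 the 2 outlying libraries were the lowest of all. Cxcr2 was higher at 8 Gy than at 4 Gy by 1.04 ± 0.30 over both antibodies (adjusted p = 0.0173). The call was lost without the outlying libraries (0.53, adjusted p = 0.227) and without IgG 4 Gy replicate 1 (adjusted p = 0.062). Against 0 Gy at 8 Gy the fold change was -0.40 with anti-PD-1 and 0.99 with IgG, neither passing.

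Csf3, the gene of G-CSF (chromosome 11, 98701263 to 98703629), fell after irradiation, at both doses over both antibodies. In the anti-PD-1 arm the libraries held 6.88 and 3.50 CPM at 0 Gy, 0.756, 2.17 and 0.798 at 4 Gy, and 0.380, 0.653 and 1.28 at 8 Gy. In the IgG arm the libraries held 1.49, 1.67 and 0.640 CPM at 0 Gy, 0.592 and 0.961 at 4 Gy, and 0.582, 0.645 and 0.719 at 8 Gy. With anti-PD-1 all irradiated libraries lay under both unirradiated ones, and with IgG the doses overlapped through the lowest 0 Gy library. The levels were low, but the lowest value stood above 3 reads, which are worth at most 0.125 CPM in any library.

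Over both antibodies Csf3 fell by 1.36 ± 0.27 on the log2 scale at 8 Gy (adjusted p = 0.004) and by 1.08 ± 0.29 at 4 Gy (adjusted p = 0.0269). The call at 8 Gy held in 25 of 25 alternatives, between -1.72 and -1.10, and the call at 4 Gy held in 16 of 25. An additive model of dose and antibody (adjusted p = 0.0703) and a fit of the compared groups only (adjusted p = 0.0825) ended the latter. The 4 Gy call was lost without IgG 0 Gy replicate 1 or 2, either IgG 4 Gy library, anti-PD-1 0 Gy replicate 1 or anti-PD-1 4 Gy replicate 3 (adjusted p = 0.051 to 0.0892), and without both outlying libraries (-1.27, adjusted p = 0.0918). Within the anti-PD-1 arm Csf3 fell at 8 Gy by 2.16 ± 0.40 (adjusted p = 0.0144), and within the IgG arm the value was -0.57 ± 0.36 (adjusted p = 0.337). The difference between the arms was -1.59 ± 0.54 (adjusted p = 0.997). The call in the anti-PD-1 arm was lost without either unirradiated library or without anti-PD-1 8 Gy replicate 1 (adjusted p = 0.0752 to 0.112).

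Csf3r, the receptor gene of G-CSF (chromosome 4, 126024550 to 126044440), moved the other way at 8 Gy over both antibodies. Under anti-PD-1 its level was 41.3 and 57.4 CPM at 0 Gy, 115, 70.1 and 78.1 at 4 Gy, and 72.0, 62.8 and 59.5 at 8 Gy. Under IgG its level was 88.0, 65.5 and 60.3 CPM at 0 Gy, 63.3 and 67.0 at 4 Gy, and 138, 110 and 92.4 at 8 Gy. Within each arm the 8 Gy libraries lay above the 0 Gy libraries, but not across arms. The IgG libraries at 0 Gy already reached the anti-PD-1 level at 8 Gy. A separation in either direction was shown by 41.3% of all genes with anti-PD-1 and 26.8% with IgG. Neither arm passed alone at 8 Gy in limma: the change was 0.40 with anti-PD-1 (adjusted p = 0.382) and 0.67 with IgG (adjusted p = 0.0552). Over both antibodies Csf3r rose at 8 Gy by 0.53 ± 0.16 (adjusted p = 0.0273), and the call was lost in 5 of 25 alternatives: in the additive model of dose and antibody and without IgG 8 Gy replicate 1 or 2, anti-PD-1 0 Gy replicate 1 or anti-PD-1 8 Gy replicate 1 (adjusted p up to 0.128). Monocytes and macrophages also express Csf3r. At 8 Gy 4.68% of all genes rose, and 9 of 14 monocyte and macrophage markers did. Their part in the Csf3r result was not tested.

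S100a9, a calprotectin subunit (chromosome 3, 90692632 to 90695721), was the member that differed between the antibodies before irradiation. Libraries of the anti-PD-1 arm stood at 78.8 and 220 CPM at 0 Gy, 37.5, 52.3 and 34.4 at 4 Gy, and 58.3, 53.1 and 49.96 at 8 Gy. Libraries of the IgG arm stood at 29, 43.3 and 30.5 CPM at 0 Gy, 22.9 and 32.8 at 4 Gy, and 77.0, 43.5 and 40.0 at 8 Gy. Both unirradiated anti-PD-1 libraries lay above every other library, and the 2 differed from each other more than any irradiated replicates of this gene. At 0 Gy S100a9 was higher with anti-PD-1 than with IgG by 1.95 ± 0.37 (n = 2 and 3, adjusted p = 0.0469), 1 of 10 members where 0.274% of all genes passed, 0.12% higher and 0.154% lower. The call rested on few libraries: without anti-PD-1 0 Gy replicate 2 the value was 1.21 (adjusted p = 0.538), without IgG 0 Gy replicate 1 or 3 it was 1.84 or 1.88 (adjusted p = 0.151 and 0.0629), and leaving out libraries of other groups ended it in 9 fits through the shared spread. A pseudocount of 0.1 also ended it (adjusted p = 0.0527).

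S100a8, the other subunit (chromosome 3, 90668978 to 90670035), varied more among replicates. With anti-PD-1 it measured 36 and 107 CPM at 0 Gy, 11.8, 5.56 and 5.94 at 4 Gy, and 31.2, 25.1 and 16.3 at 8 Gy. With IgG it measured 7.58, 40.3 and 4.89 CPM at 0 Gy, 12.2 and 14.2 at 4 Gy, and 41.5, 17.7 and 23.0 at 8 Gy. The 8 Gy libraries all stood above the 4 Gy libraries, a separation in either direction that 12.7% of all tested genes showed, while the IgG libraries at 0 Gy spanned both. S100a8 was higher at 8 Gy than at 4 Gy by 1.27 ± 0.46 over both antibodies (adjusted p = 0.0464), and the call held in 12 of 25 alternatives. It was lost without any one of 10 libraries, all those at 4 and 8 Gy except anti-PD-1 4 Gy replicate 1 and anti-PD-1 8 Gy replicate 3, and IgG 0 Gy replicate 1 (adjusted p = 0.0502 to 0.125). Using no filter or the additive model ended it as well (adjusted p = 0.0627 and 0.0828). Without both outlying libraries the value was 0.95 (adjusted p = 0.302).

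Retnlg, a neutrophil gene of mice (chromosome 16, 48872621 to 48874496), separated the arms at 8 Gy. In the anti-PD-1 arm the libraries held 28.1 and 81.3 CPM at 0 Gy, 15.7, 13 and 7.28 at 4 Gy, and 12.4, 12.5 and 12.4 at 8 Gy. In the IgG arm the libraries held 8.07, 18.3 and 15.9 CPM at 0 Gy, 10.7 and 10.4 at 4 Gy, and 36.7, 34.8 and 28.1 at 8 Gy. With anti-PD-1 all irradiated libraries lay under both unirradiated ones, and with IgG all 8 Gy libraries lay above all others. Between 8 and 0 Gy 41.3% of all genes did not overlap with anti-PD-1 and 26.8% with IgG.

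Retnlg fell at 8 Gy by 1.90 ± 0.41 with anti-PD-1 (adjusted p = 0.0249), where 2 of 10 members passed, both lower, and 2.83% of all genes did, 0.957% higher and 1.88% lower. It rose at 8 Gy by 1.28 ± 0.36 with IgG (adjusted p = 0.0387), where 1 of 10 members passed and 10.6% of all genes did, 1.44% higher and 9.12% lower. Without the outlying libraries 4 of 10 passed with IgG, where 10.1% of all genes did: Cxcl2, Cxcl3, Csf3r and Retnlg, all higher. The difference between the arms was -3.17 ± 0.54, with an unadjusted p of 4.21e-05 and an adjusted p of 0.182, so it did not pass, and 0 of 17546 genes passed this limma test, with 598 at an unadjusted p under 0.05. Without anti-PD-1 0 Gy replicate 2 the value with anti-PD-1 was -1.14 (adjusted p = 0.374) and the difference was -2.42 (adjusted p = 0.728). Without anti-PD-1 0 Gy replicate 1 the difference was -3.93 and passed (adjusted p = 0.0453). The dose effect within the anti-PD-1 arm also no longer passed without anti-PD-1 8 Gy replicate 1 or 2 (adjusted p = 0.0946 and 0.0671). The rise with IgG held in 9 of 16 fits that left out 1 library, and was lost without IgG 0 Gy replicate 1, any 8 Gy IgG library, either 4 Gy IgG library or anti-PD-1 8 Gy replicate 2 (adjusted p = 0.052 to 0.193). Using no filter on low values ended it as well (adjusted p = 0.056). At 8 Gy the fold change of Retnlg for anti-PD-1 against IgG was -1.37 ± 0.36 (adjusted p = 0.208, not passing), and the libraries did not overlap, as in 4 of 10 members and 23.5% of all genes.

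**Figure D2:**
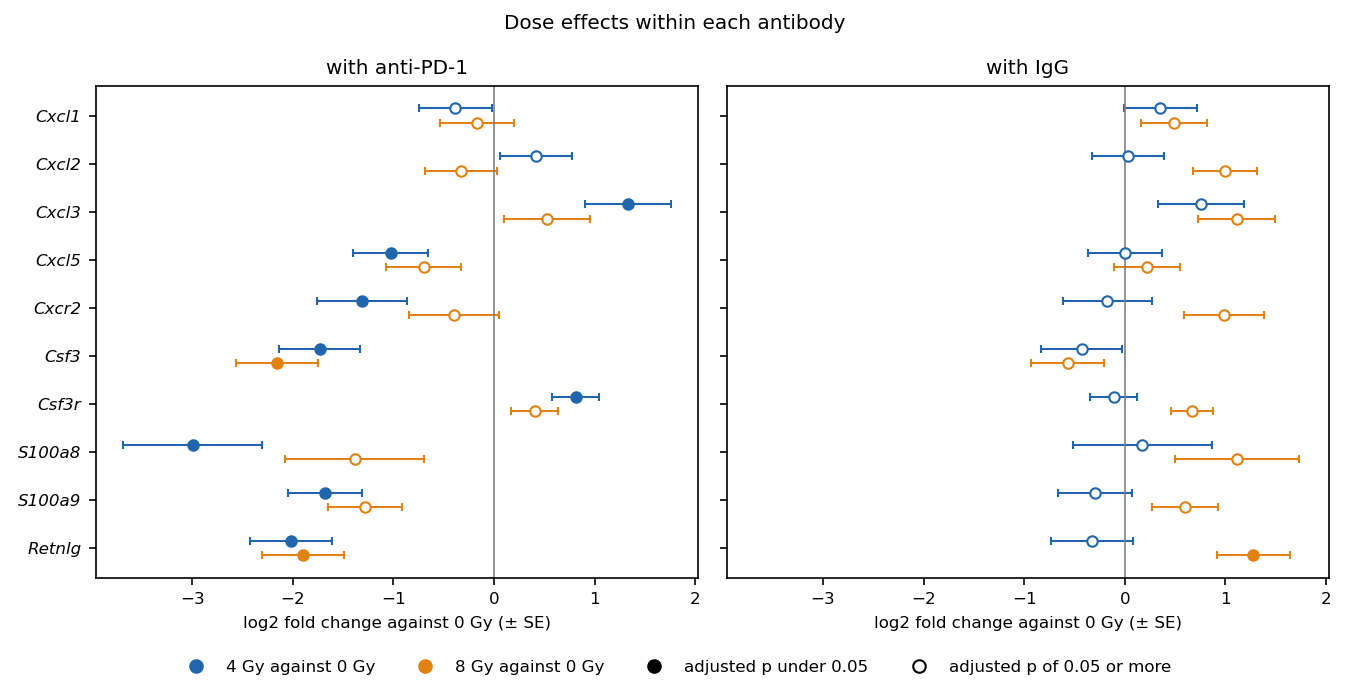
Log2 fold change against 0 Gy (x axis, points with SE) of the 10 genes at 4 Gy in blue and 8 Gy in orange, with anti-PD-1 in the left panel and IgG in the right, filled where the adjusted p was under 0.05. At 8 Gy 2 of 10 values are positive with anti-PD-1 and 9 of 10 with IgG, and Retnlg passes on both sides, at -1.90 and 1.28.

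The signs of the 8 Gy estimates differed by antibody among the members. With anti-PD-1 2 of 10 were positive (Cxcl3 and Csf3r), with a median of -0.55, beside -0.06 over all genes tested. With IgG 9 of 10 were positive (all but Csf3), with a median of 0.83, beside -0.12. The share of positive values over all genes was not taken, and members that run together are counted singly. All anti-PD-1 values share 2 unirradiated libraries. Leaving out 1 library spanned 0 there for Cxcr2 (-1.01 to 0.21) and Cxcl1 (-0.53 to 0.22). With IgG it did so for Cxcl5 (-0.11 to 0.50). No member passed the test of the difference between arms, and 6 had an unadjusted p under 0.05. Of all 17546 genes 0 passed that test, and 598 had an unadjusted p under 0.05. The lowest adjusted p after that of Retnlg was 0.711, for S100a9, where the difference was -1.88 ± 0.50.

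At 4 Gy the arms could be read less well. With IgG no member passed in limma and 0 had an unadjusted p under 0.05, with 2 libraries at 4 Gy. Of all genes 0.0057% passed, and 2016 of 17546 had an unadjusted p under 0.05. With anti-PD-1 2 rose and 6 fell, 8 of 10, where 39.3% of all genes passed, 13.4% higher and 25.9% lower. S100a8 changed by -2.99 ± 0.69 on the log2 scale (adjusted p = 0.00682), Retnlg by -2.02 ± 0.41 (adjusted p = 0.00484), Csf3 by -1.73 ± 0.40 (adjusted p = 0.00719) and S100a9 by -1.68 ± 0.37 (adjusted p = 0.00596). Cxcr2 fell by 1.31 ± 0.44, Cxcl3 rose by 1.33 ± 0.43 and Csf3r rose by 0.81 ± 0.23. Leaving out anti-PD-1 0 Gy replicate 2 ended the calls of S100a8 (-2.22), Retnlg (-1.26), S100a9 (-0.94) and Cxcr2 (-0.70), and leaving out replicate 1 of that group ended those of Csf3 (-1.29), Csf3r (0.58) and Cxcl3 (1.39). The calls of Cxcl3 and Cxcr2 were also lost without either outlying library alone, and that of Cxcl3 without anti-PD-1 0 Gy replicate 2 (1.27). Without the outlying libraries, which left 1 library at 4 Gy that was assumed to vary like the others, no member passed and 0.16% of all genes did. In that fit Csf3 stood at -2.11, S100a8 at -2.34, S100a9 at -1.80, Retnlg at -1.58 and Csf3r at 1.24, and Cxcl3 at 0.24 and Cxcr2 at -0.30. Over both antibodies at 4 Gy, S100a9 changed by -0.99 ± 0.26 (adjusted p = 0.0269) and Retnlg by -1.17 ± 0.29 (adjusted p = 0.0216). Without both outlying libraries the values were -1.04 (adjusted p = 0.131) and -0.95 (adjusted p = 0.161). Both calls were also lost without either IgG 4 Gy library, anti-PD-1 4 Gy replicate 3 or anti-PD-1 0 Gy replicate 2 (-0.62 for S100a9 and -0.79 for Retnlg), and that of S100a9 without IgG 0 Gy replicate 2. The additive model ended both calls (adjusted p = 0.1005 for S100a9 and 0.1716 for Retnlg). So did a fit of the compared groups only (adjusted p = 0.0788 and 0.0832). At 4 Gy no member passed the test of the difference between arms, where 9.08% of all genes passed. An unadjusted p under 0.05 was reached by 5 members and by 5945 of 17546 genes. The lowest adjusted p of a member was 0.0537, for S100a8.

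At 8 Gy against 4 Gy over both antibodies Retnlg was higher by 0.86 ± 0.27 (adjusted p = 0.0268), and by 0.64 (adjusted p = 0.197, not passing) without the outlying libraries. The call was lost without either IgG 4 Gy library, IgG 8 Gy replicate 1 or 2, anti-PD-1 4 Gy replicate 3 or anti-PD-1 8 Gy replicate 1 (adjusted p = 0.0501 to 0.0785). The additive model ended it as well (adjusted p = 0.1745). Within the arms 1 of 10 members passed in each: S100a8 with anti-PD-1, by 1.61 (adjusted p = 0.0491), where 41.8% of all genes passed, 24.4% higher and 17.5% lower, and Retnlg with IgG, by 1.60 (adjusted p = 0.0318), where 7.58% did, 1.64% higher and 5.94% lower. The S100a8 call was lost without the outlying libraries (0.96, adjusted p = 0.568) and held in 5 of 16 fits that left out 1 library, and the Retnlg call in 11 of 16, being lost without any one of the 2 IgG 4 Gy and 3 IgG 8 Gy libraries. For the difference between arms at 8 Gy against 4 Gy, no member passed in limma, 3 had an unadjusted p under 0.05, and 0 of all genes passed, with 4801 at an unadjusted p under 0.05. The lowest adjusted p of a member was 0.0662, for Csf3r, where the difference was -1.18 ± 0.31.

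**Figure D3:**
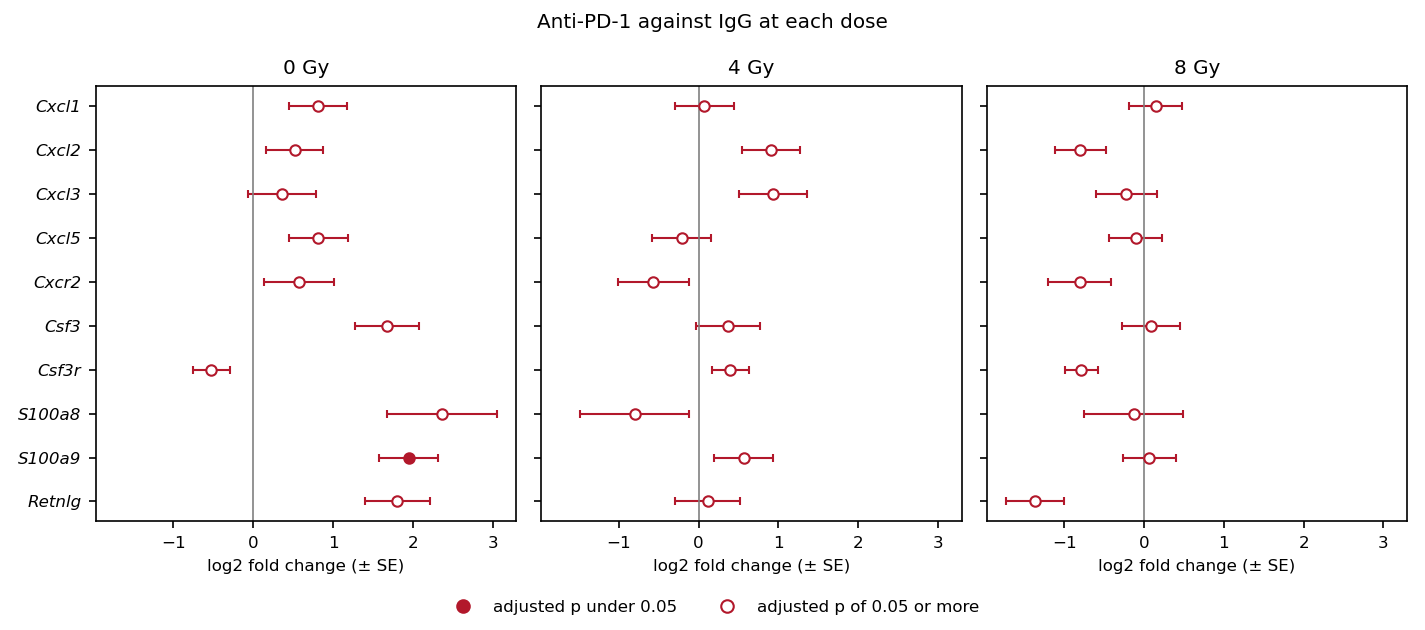
Log2 fold change of anti-PD-1 against IgG (x axis, points with SE) of the 10 genes at 0, 4 and 8 Gy, filled where the adjusted p was under 0.05. S100a9 at 0 Gy is the one filled point, at 1.95, and Retnlg stands at 1.81 at 0 Gy and -1.37 at 8 Gy.

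Before irradiation the antibody values of the members were mostly positive. At 0 Gy 9 of 10 were higher with anti-PD-1 in the estimate, with a median of 0.81, beside 0.04 over all genes tested. Csf3r was the exception at -0.52. The share of positive values over all genes was not taken. Leaving out 1 library spanned 0 for Cxcr2 (-0.04 to 1.19) and Cxcl3 (-0.0025 to 0.58). The same 2 unirradiated anti-PD-1 libraries are the reference of the dose values in that arm, so these patterns are not independent. Beside S100a9, the estimates were 2.37 ± 0.69 for S100a8 (adjusted p = 0.191), 1.81 ± 0.41 for Retnlg (adjusted p = 0.0835) and 1.68 ± 0.40 for Csf3 (adjusted p = 0.103). Cxcl1, Cxcl2, Cxcl5, Csf3, S100a9 and Retnlg were above all IgG libraries in both anti-PD-1 libraries, and Csf3r was below them, 7 of 10 without overlap where 22.4% of all genes had none. For Cxcl5 this was nearly a tie, at 24.25 CPM with anti-PD-1 against 24.2 CPM with IgG. At 4 Gy and at 8 Gy no member passed in limma, 2 and 3 had an unadjusted p under 0.05, and 15.5% and 0.0057% of all genes passed. Of the 17546 genes tested 6456 and 2185 had an unadjusted p under 0.05. Anti-PD-1 0 Gy replicate 2 held the highest value of any library for S100a8, S100a9, Retnlg and Cxcr2, and replicate 1 of that group for Csf3 and Cxcl1.

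Read per kilobase of exon, S100a9 and S100a8 had the highest group means of the members before irradiation. In unirradiated lungs S100a9 averaged 286 CPM per kb with anti-PD-1 and 65.7 with IgG, S100a8 103 and 25.3, and Retnlg 92.2 and 23.7. Csf3r averaged 13.7 CPM per kb with anti-PD-1 and 19.7 with IgG, and Cxcr2 8.52 and 5.37. Among the ligands Cxcl5 (15.8 and 9.27 CPM per kb) and Cxcl1 (15.1 and 8.31) were nearly level, above Cxcl2 (6.18 and 4.23) and Cxcl3 (3.11 and 2.54), and Csf3 averaged 3.67 and 0.895. The SDs of single genes reached 49.9 CPM for S100a8 and 99.7 CPM for S100a9 in the anti-PD-1 group of 2. With IgG the S100a8 mean rested on replicate 2, at 40.3 CPM, beside 7.58 and 4.9 CPM in replicates 1 and 3. The range of S100a8 over the replicates therefore overlapped those of S100a9 and Retnlg in each arm, and that of Csf3r with IgG. Within each unirradiated library S100a9 was the higher of the calprotectin subunits.

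A list of 23 other genes of mature neutrophils, of which 22 were tested, was read in each arm. Like the other lists below, it was chosen with earlier results of these data known. Its counts beside the shares of all genes are therefore a description and not a test. At 8 Gy against 0 Gy 1 rose and 2 fell with anti-PD-1 (median 0.53), where 0.957% of all genes rose and 1.88% fell. With IgG 10 rose and none fell (median 0.86), where 1.44% of all genes rose and 9.12% fell. Mmp8, the neutrophil collagenase, measured 5.16, 4.85 and 8.40 CPM at 8 Gy against 21.7 and 66.2 CPM at 0 Gy with anti-PD-1. Its log2 fold change was -2.58 there (adjusted p = 0.00936) and 0.00 with IgG. Il1r2, the decoy receptor for interleukin 1, fell by 1.13 with anti-PD-1 (adjusted p = 0.0452) and rose by 1.14 with IgG (adjusted p = 0.0141). Trem1, an activating receptor of neutrophils and monocytes, stood at -0.23 with anti-PD-1 and rose by 1.59 with IgG. Itgb2, a subunit of leukocyte integrins, rose by 0.75 with anti-PD-1. No gene of the list passed the test of the difference between arms at 8 Gy.

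**Figure D4:**
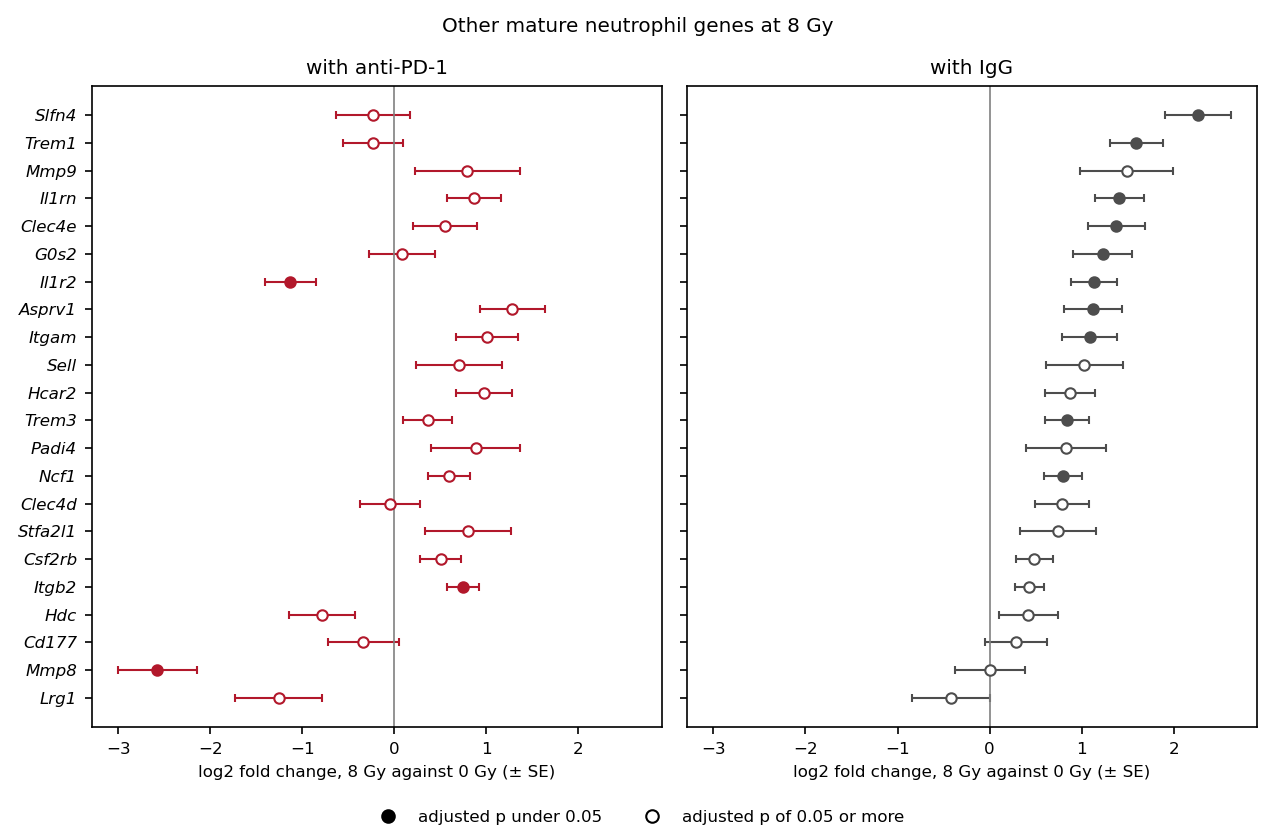
Log2 fold change at 8 Gy against 0 Gy (x axis, points with SE) of 22 other mature neutrophil genes, with anti-PD-1 in the left panel and IgG in the right, ordered by the IgG value and filled where the adjusted p was under 0.05. Mmp8 and Il1r2 lie at -2.58 and -1.13 with anti-PD-1, and 10 genes pass on the higher side with IgG.

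Over both antibodies 12 of the 22 mature neutrophil genes rose at 8 Gy and 1, Mmp8, fell (median 0.69), where 4.68% of all genes rose and 16.1% fell. Without the outlying libraries 13 rose and 1 fell. Among those that rose were Mmp9, the gelatinase of neutrophil granules, by 1.14 (adjusted p = 0.0464), the integrin subunit gene Itgam by 1.05, and Il1rn, the interleukin 1 receptor antagonist gene, by 1.14. Several of these genes, Itgam and Itgb2 among them, are also expressed by monocytes and macrophages. Monocyte and macrophage markers rose in 9 of 14 cases, Ly6c2 by 1.33 and Csf1r by 0.58, and none fell. Their summed CPM was 6307 to 7302 at 8 Gy against 4148 to 4605 at 0 Gy with anti-PD-1, and 7289 to 8886 at 8 Gy against 6573 to 8035 at 0 Gy with IgG, and none of them was at 0. All 6 red cell genes rose at 8 Gy (median 1.71), with summed CPM of 6481 to 13840 at 8 Gy against 2373 to 3215 at 0 Gy with anti-PD-1 and 11110 to 22300 at 8 Gy against 1961 to 21930 at 0 Gy with IgG. The part of monocytes and of blood in the member results was not tested.

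Of 14 granule and precursor genes 9 were tested. Of these 2 rose at 8 Gy (Prtn3 by 1.39 and Cebpe by 1.5) and none fell, with a median of -0.05. Over all genes 4.68% rose and 16.1% fell in that comparison. Of 16 other attractants and their receptors 15 were tested, and at 8 Gy Ccl3, Ccl4 and the leukotriene B4 receptor gene Ltb4r1 rose by 1.33, 1.29 and 0.86, while Cxcl12, the ligand that holds neutrophils in the marrow, fell by 0.59. Cxcl15, the lung epithelial chemokine gene that lies between Cxcl3 and Cxcl1, was not among those that passed at 8 Gy (-0.22). At 4 Gy it rose by 1.80 (adjusted p = 0.0111), measuring 110, 166 and 166 CPM at 4 Gy against 28.2 and 99.4 CPM at 0 Gy with anti-PD-1, and 141 and 297 CPM at 4 Gy against 48.5, 28.5 and 66.6 CPM at 0 Gy with IgG. None of the 15 genes of this list passed at 4 Gy without the outlying libraries. Lung epithelium markers moved with Cxcl15: 8 of 10 rose at 4 Gy, where 5.33% of all genes rose, and 1 of 10 without the outlying libraries, where 0.519% of all genes passed in either direction. Their median was 1.53 with those libraries and 1.49 without. The markers had a summed CPM of 17150 to 25180 at 4 Gy against 5704 to 8469 at 0 Gy with anti-PD-1 and 11500 to 16830 against 2620 to 9271 with IgG. Their part in the result was not tested.

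Of 17 cytokine genes that act upstream of the ligands and of Csf3, 14 were tested. At 8 Gy 4 of these rose and 2 fell, where 4.68% of all genes rose and 16.1% fell. Il1b, which encodes interleukin 1 beta, rose by 1.53 (adjusted p = 0.000279). It measured 45.0, 59.7 and 58.0 CPM at 8 Gy against 33.7 and 22.6 CPM at 0 Gy with anti-PD-1, and 132, 165 and 158 CPM at 8 Gy against 42.2, 23.5 and 42.3 CPM at 0 Gy with IgG. The 8 Gy libraries all stood above those at 0 Gy, highest with IgG. Il1a, Csf2 (GM-CSF) and Tnf rose by 1.20, 1.03 and 0.87, and Nfkbiz, a nuclear regulator of NF-kB targets, fell by 0.94. Il6 did not pass over both antibodies (0.29) and rose by 1.07 with IgG. At 4 Gy 3 rose (Csf2, Tnf and Icam1) and 2 fell, where 5.33% of all genes rose and 12.2% fell, and Il1b stood at 0.31. None of the 14 passed at 4 Gy without the outlying libraries. Il17a is not analysed here.

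Across the 16 libraries the members fell into loose sets, given as a description because the libraries share groups and depth. S100a8 and S100a9 ran together (Pearson r = 0.78), as did S100a9 with Retnlg (0.78) and Cxcr2 with S100a8 (0.77). Among the ligands Cxcl2 ran with Cxcl3 (0.73) and, once group means were removed, with Cxcl1 (0.82). Csf3 and Csf3r ran against each other (-0.59, and -0.40 once group means were removed). After that removal Cxcr2 ran against Cxcl3 (-0.79) and Cxcl2 (-0.76). The genes most like Retnlg were Il1r2 (r = 0.90, rho = 0.73), Ddit4 (0.86, 0.76) and Olfm4 (0.85, 0.77), and those most like S100a9 were Gm41442 (0.89, 0.77), Mmp8 (0.83, 0.50) and Olfm4 (0.82, 0.56). Olfm4 marks a subset of neutrophils in mice. Cxcl3 was most like Il27 (0.92, 0.85), Nos2 (0.91, 0.93) and Psmb10 (0.89, 0.82), and Cxcr2 was most like Cd33 (0.91, 0.88), Nlrp12 (0.91, 0.89) and Picalm (0.90, 0.79). The highest values of Cxcl3 and the lowest of Cxcr2 lay in the outlying libraries, and no r was taken without these. Csf3r was most like C130050O18Rik, Lilra6 and Slc15a3 (r of 0.89, 0.88 and 0.88), and Cxcl2 had Carhsp1, Socs3 and Csrnp1 nearest.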

How the data were processed

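The 16 libraries were put in 6 groups by their titles. The deposited values are CPM per gene, to which the authors had added 1e-04, subtracted here. STAR, Partek and mm10 are named per the submitters' processing notes, with no version. Annotation, counting and strand were not given in the sources used. Reads could not be recovered (57.6 to 63.4% of low values were whole within 0.02), so no count model was used. 1 read was worth 0.0155 to 0.0418 CPM.

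The filter (1 CPM in 2 libraries) kept 17546 genes, which were fitted on the scale log2(CPM + 0.5) by limma 3.58.1 (trend and robust, R 4.3.3), with 6 group means and Benjamini-Hochberg adjustment over all of them (threshold 0.05). The offset understates changes of low genes such as Csf3. Comparisons over both antibodies average the arms. Members and gene lists were chosen with earlier results of these data known. The text names all members, up to 4 genes with the lowest p per list at 8 Gy and at 4 Gy, fixed marker genes, and the 3 genes most correlated with a member. Trem1 was chosen after its values were seen. Positions were matched to GENCODE M21. Pools of 1 group may share a source, and p-values cover the spread between pools. The procedure was tested on simulated data. Alternatives were quantile normalization, equal library medians, no filter, pseudocounts of 0.1 and 1, a replicate block, the compared groups only, an additive model, leaving out each library and, chosen after seeing the data, leaving out both outlying libraries.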

Additional observations from a re-analysis of the deposited data

Results flagged for a closer look

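Retnlg is singled out because its dose effect ran in opposite directions under the 2 antibodies: at 8 Gy all libraries with anti-PD-1 lay below those at 0 Gy and all libraries with IgG lay above. Between these doses 41.3% of all genes did not overlap with anti-PD-1 and 26.8% with IgG. The difference between the arms was -3.17 on the log2 scale, and the interaction test gave an adjusted p of 0.182.

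Cxcl3 in IgG 0 Gy replicate 2 is singled out because this library, at 4.86 CPM, lay far below the other 4 unirradiated libraries. On the scale log2(CPM + 0.5), the gap to the nearest was 0.873 of the whole range of the 5. Of 30 sets of libraries examined this way, 1 stood out, and chance alone picks about 1 in 20.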

How the results depend on the processing

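Counts of passing members and genes moved with the model. Over both antibodies the compared groups alone gave 0 members and 131 genes at 4 Gy against 0 Gy. The additive model gave 1 member at 8 Gy against 0 Gy, 1 at 4 Gy against 0 Gy and 1 at 8 Gy against 4 Gy, with 1474 genes at 4 Gy against 0 Gy and 0 for the antibodies. Leaving out both outlying libraries gave 0 members and 91 genes at 4 Gy against 0 Gy, 0 members and 2200 genes at 8 Gy against 4 Gy, and 0 genes for the antibodies. Leaving out 1 library gave 1 to 3 members and 2014 to 4413 genes at 8 Gy against 0 Gy, 0 to 7 and 97 to 5747 at 4 Gy against 0 Gy, 0 to 4 and 3570 to 7431 at 8 Gy against 4 Gy, and 0 to 1 and 0 to 1316 for the antibodies. The cause was not tested.

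Scaling moved the split of genes. At 8 Gy against 0 Gy 822 rose and 2818 fell, against 1421 and 1764 after quantile normalization and 1568 and 1915 with equal medians. At 4 Gy against 0 Gy 935 rose and 2141 fell, against 1343 and 1061 and 1275 and 798.

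Deviations of same-numbered libraries from their group means were correlated at r of -0.546 to 0.442 (36 pairs, median -0.101, 11 over 0.1). The median for other pairs was 0.0165. Groups hold 2 or 3 libraries and the labels do not say what a number marks, so these values cannot decide whether numbers pair the libraries. With the replicate block 2, 3 and 4 members passed at 8 Gy against 0 Gy, 4 Gy against 0 Gy and 8 Gy against 4 Gy, and 0 members and 9 genes for the antibodies. The block ended the calls of Cxcl3 at 4 Gy over both antibodies (adjusted p = 0.0505), of Cxcl3, Cxcl5 and Cxcr2 at 4 Gy with anti-PD-1 (0.0593, 0.067 and 0.0658) and of S100a9 between the antibodies at 0 Gy (0.0656).

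Sign changes were seen in values that had not passed. At 4 Gy against 0 Gy Cxcl1 turned to 0.097 and 0.098 under the rescalings and 0.0078 in the additive model, and Cxcl2 to -0.228 without the outlying libraries. Without these Csf3r (-0.029) and Cxcl3 (0.321) turned at 8 Gy against 4 Gy, Cxcl2 (-0.092), Cxcl3 (-0.0061), Cxcl5 (-0.032) and Cxcr2 (0.071) between the antibodies, and Cxcl2 (-0.518) and Cxcl3 (-0.512) in the difference between arms at 4 Gy. S100a8 turned to 0.057 at 8 Gy against 0 Gy in the additive model. Leaving out 1 library spanned 0 at 8 Gy against 0 Gy for Cxcl1 (-0.020 to 0.357), Cxcr2 (-0.012 to 0.600), Retnlg (-0.690 to 0.069), S100a8 (-0.525 to 0.301) and S100a9 (-0.714 to 0.023). It did so at 4 Gy against 0 Gy for Cxcl1 (-0.194 to 0.164), at 8 Gy against 4 Gy for Cxcl2 (-0.115 to 0.306), between the antibodies for Retnlg (-0.069 to 0.437), and in the difference between arms at 4 Gy for Cxcl2 (-0.0037 to 0.839). In the difference between arms at 8 Gy against 4 Gy, Cxcl1 turned to -0.071 under quantile normalization and -0.093 with equal medians, Cxcl5 to -0.027 and -0.059, and Csf3 to 0.095 without the outlying libraries. Leaving out 1 library gave -0.559 to 0.071 there for Csf3, -0.242 to 0.469 for Cxcl1, -0.193 to 0.394 for Cxcl5 and -0.586 to 0.266 for Cxcr2.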
